A study of Mus musculus with 6 samples.

Results

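The RNA of embryonic handpads is a mixture from many cell types, and 32 genes in it mark cells of the blood lineage that settle in tissues. They were taken as a named set of macrophage, mast cell and leukocyte genes, and make up 32 of the 34989 genes in the deposited tables. For description they were divided into 20 macrophage genes, 3 mast cell genes and 9 genes made by several types of leukocyte. These 9 are named pan-leukocyte genes below. The handpad is the paddle-shaped end of the embryonic forelimb, and the samples were taken at E14.5 from C57BL/6 mice. There were 3 wild-type samples and 3 samples with a knockout of Grhl3, a transcription factor of the surface epithelium. The labels give no promoter, Cre or second allele, do not say which part of Grhl3 is deleted, and do not say whether a sample was 1 embryo or a pool. Spread among the replicates, against which every p-value below is set, may thus be partly technical. Libraries were made from polyadenylated RNA with a stranded kit.

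Macrophages of the embryo derive from early haematopoietic cells and take up residence in the limb, where they clear cells that die as the tissue is shaped. Their survival depends on the receptor CSF1R, and they make the C1q chains that tag dying cells for engulfment. Mast cells are a separate lineage that depends on the receptor KIT and stores proteases such as chymases and carboxypeptidase A3 in granules. PU.1, the product of Spi1, drives macrophage genes, and GATA factors drive mast cell genes.

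The promoters of the mast cell genes and of C1qb are shown because these genes were among the highest members or had the widest differences between the groups. Each sequence is the 250 bases before the RefSeq start on mouse build GRCm38.p6, written 5′ to 3′ on the strand of the gene. Capitals mark GATAA, the core of the site for GATA factors, or GAGGAA, the core of a PU.1 site, or the reverse complement of either. The windows are chr14:55944676-55944925 for Cma1, chr14:56062311-56062560 for Mcpt4, chr3:20242182-20242431 for Cpa3 and chr4:136886201-136886450 for C1qb, all on the minus strand.
Cma1: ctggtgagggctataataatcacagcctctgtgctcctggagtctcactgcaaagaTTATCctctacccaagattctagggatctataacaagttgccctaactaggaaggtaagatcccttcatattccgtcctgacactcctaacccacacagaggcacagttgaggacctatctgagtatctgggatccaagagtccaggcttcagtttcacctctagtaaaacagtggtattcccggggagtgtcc
Mcpt4: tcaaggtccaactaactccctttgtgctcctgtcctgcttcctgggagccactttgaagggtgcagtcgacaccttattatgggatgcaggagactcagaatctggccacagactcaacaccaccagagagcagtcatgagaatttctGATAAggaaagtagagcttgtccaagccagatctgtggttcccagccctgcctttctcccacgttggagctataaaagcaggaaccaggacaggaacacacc
Cpa3: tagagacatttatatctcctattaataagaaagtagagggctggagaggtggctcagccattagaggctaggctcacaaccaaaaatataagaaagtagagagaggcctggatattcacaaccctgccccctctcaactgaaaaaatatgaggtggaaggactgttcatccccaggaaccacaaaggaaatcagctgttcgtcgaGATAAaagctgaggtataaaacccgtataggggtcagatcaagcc
C1qb: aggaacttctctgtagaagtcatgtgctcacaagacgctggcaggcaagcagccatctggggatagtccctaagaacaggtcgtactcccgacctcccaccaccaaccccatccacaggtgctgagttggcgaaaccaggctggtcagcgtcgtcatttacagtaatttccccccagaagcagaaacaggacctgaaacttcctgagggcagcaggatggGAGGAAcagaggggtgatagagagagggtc

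GATAA was present on either strand in all 3 mast cell promoters, against 22.6% of 32851 RefSeq promoter stretches of the same length. GAGGAA was present in 10 of 18 macrophage promoter stretches (55.6%), in 4 of 10 pan-leukocyte stretches (40%) and in 0 of 3 mast cell stretches, against 23.3% of all stretches. GATAA was present in 5 of the 18 macrophage stretches (27.8%) and in 1 of the 10 pan-leukocyte stretches. Of the 32 genes, 26 matched a RefSeq entry, and 5 of those had more than 1 start, which gave 31 stretches. The motifs GAGGAA and GATAA cannot overlap each other on either strand. These counts describe letters in a window and do not show a bound factor.

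The label of the knockout was checked on Grhl3 itself. It was at 14.3, 45.7 and 18.6 CPM in wild-type replicates 1, 2 and 3 and at 3.11, 2.86 and 2.95 CPM in knockout replicates 1, 2 and 3. The log2 fold change was -3.14 (SE 0.41, adjusted p = 0.0221, edgeR's quasi-likelihood test with Benjamini-Hochberg adjustment), and the groups did not overlap. CPM is the estimated count of a gene, summed over its transcripts and divided by the library size in units of 1000000 counts, with sizes scaled by the TMM method. The libraries held 38052692 to 56037639 estimated counts. Wild-type replicate 1 stood apart in 2 measures, with the shortest mean transcript per count (3148 bases, against 3347 to 3625 in the other libraries) and the highest share of ribosomal protein genes (8.95%, against 5.64% to 7.78%). The Y-linked genes summed to 283 and 327 CPM in wild-type replicates 2 and 3 and to 3.43 to 5.57 CPM in the other 4 libraries, so every knockout library was low in them.

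All 32 genes had counts in every library. A low-count filter passed 30 of them, leaving out the macrophage genes Cd163 and Timd4. Measured per length as TPM, the mast cell gene Cpa3 was the highest, with a mean of 70.4 over the 6 libraries, followed by Cma1 at 44.1, C1qb at 35.1, Tyrobp at 34.6 and Coro1a at 31.8. Each neighbouring pair in this order overlapped in its range over the libraries (Cpa3 47.3 to 97.0 TPM, Cma1 27.5 to 74.9, C1qb 23.7 to 42.1). Compared within a library, Cpa3 was above Cma1 in all 6, and the order within each later pair changed between libraries. The lowest were Timd4 at 0.125 and Cd163 at 0.0384 TPM.

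**Figure D1:**
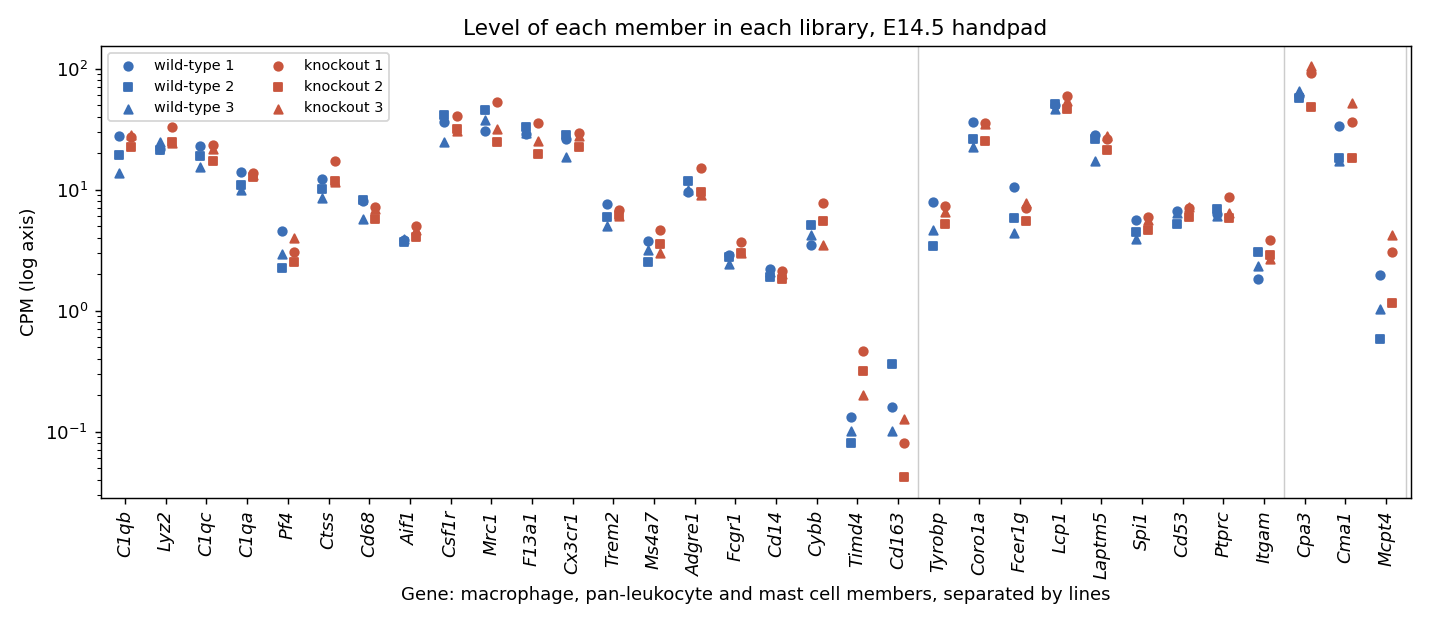
Level of each of the 32 genes in each library in CPM on a log axis, with 1 point per library, circles, squares and triangles for replicates 1, 2 and 3, blue for wild-type and red for Grhl3 knockout, and grey lines between the macrophage, pan-leukocyte and mast cell genes. The groups overlap for all genes except Aif1, Fcgr1 and Timd4.

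None of the 30 tested genes passed the test between knockout and wild-type at an adjusted p under 0.05, where 0.431% of the 16938 genes tested did (59 higher, 0.348%, and 14 lower, 0.0827%). At an unadjusted p under 0.05, 1 gene, Mcpt4, was higher and 0 were lower, against 3.81% and 3.41% of all genes. The edgeR likelihood ratio test, DESeq2 and limma-voom also called 0 of them. In bulk RNA, more cells of a type and more RNA per cell cannot be told apart. The log2 fold change was above 0 in 24 genes and below 0 in 6, against 48.8% of all genes above 0. The 30 genes were read in the same 6 libraries and many are made by the same cells, so these directions are not separate observations. The 95% interval of the fold change lay within a 2-fold change in either direction for 27 of the 30 genes, against 82.1% of all genes, and the 3 exceptions were Cybb, Cma1 and Mcpt4.

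**Figure D2:**
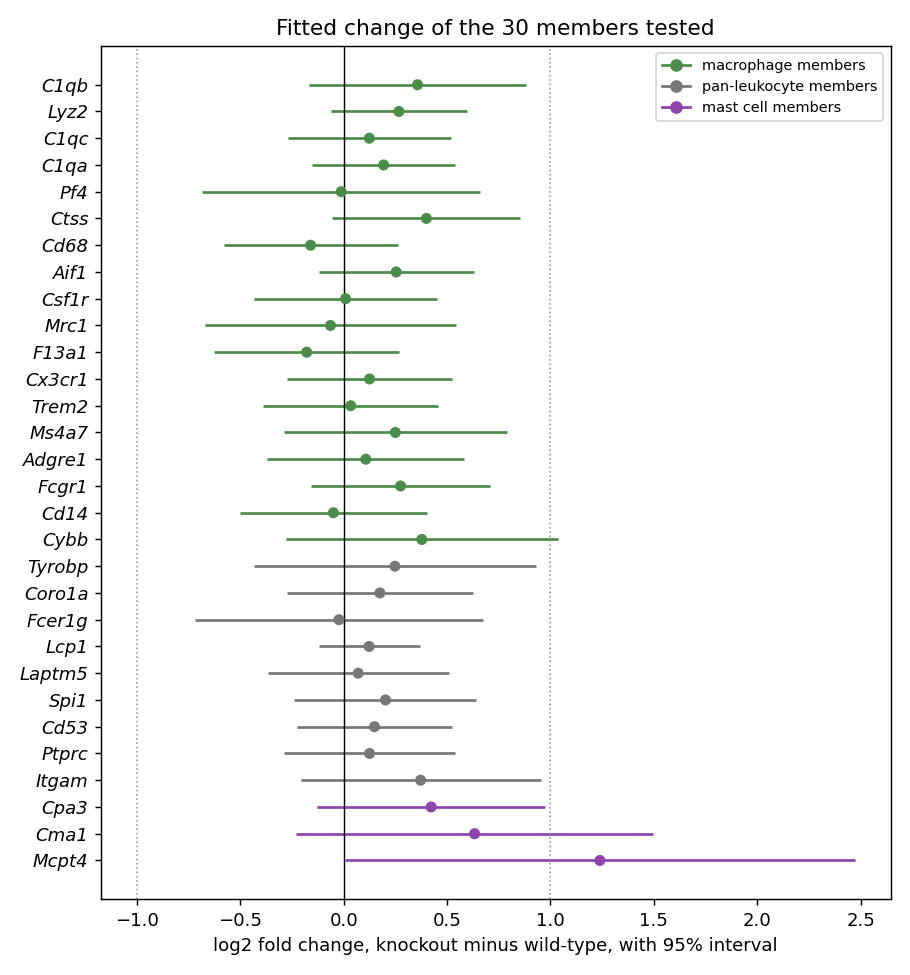
Log2 fold change of knockout over wild-type for the 30 tested genes, with bars for the 95% interval from edgeR, in green for macrophage, grey for pan-leukocyte and purple for mast cell genes, and dotted lines at a 2-fold change. Most points lie within 0.40 of 0, and the 3 mast cell genes lie between 0.42 and 1.24 with wide intervals.

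The macrophage genes had a median log2 fold change of 0.12 over the 18 tested, from -0.18 for F13a1 to 0.40 for Ctss, and the median of all genes was near 0 at -0.004. Above 0 were 13 and below 0 were 5, and 17 of the 18 intervals lay within a 2-fold change.

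The 3 C1q genes encode the chains of the first complement component, which binds dying cells. C1qb was at 27.8, 19.5 and 13.8 CPM in wild-type and at 27.3, 22.5 and 28.4 CPM in knockout. Its means were 20.4 ± 7.04 and 26.1 ± 3.15 CPM (SD, n = 3 each), and the log2 fold change was 0.36 (SE 0.23, edgeR adjusted p = 0.874). The groups overlapped, because wild-type replicate 1 was as high as the knockouts. C1qa was at 14.1, 10.8 and 9.84 CPM in wild-type and at 13.6, 12.8 and 13.3 CPM in knockout, with the same order of wild-type libraries. C1qc was at 22.9, 19.0 and 15.3 CPM in wild-type and at 23.4, 17.3 and 21.5 CPM in knockout, a log2 fold change of 0.12 (SE 0.17). All 3 genes thus had wild-type replicate 1 as the highest and wild-type replicate 3 as the lowest wild-type library. They lie in a cluster on chromosome 4, 1306 to 1322 kb from Grhl3, and the leukocyte gene Laptm5 lies 4606 kb from it.

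The receptors of the macrophage surface showed no common direction. Csf1r, the receptor for the growth factors CSF1 and IL-34, was at 36.4, 41.2 and 24.8 CPM in wild-type and at 40.8, 31.5 and 30.7 CPM in knockout. Its log2 fold change was 0.01 with a 95% interval from -0.43 to 0.45. Cx3cr1, the fractalkine receptor, was at 26.04, 28.4 and 18.4 CPM in wild-type and at 29.2, 22.6 and 27.7 CPM in knockout, a log2 fold change of 0.13 (95% interval -0.27 to 0.52). For each of these 2 receptors the lowest library was wild-type replicate 3. Adgre1, which encodes the surface marker F4/80, had a log2 fold change of 0.11 (SE 0.21), and it was highest in knockout replicate 1 at 15.04 CPM against 9.08 to 11.7 CPM in the other 5 libraries. Mrc1, the mannose receptor, ranged from 30.5 to 45.7 CPM in wild-type and from 24.7 to 52.6 CPM in knockout, so its highest and its lowest library were both knockouts. Trem2 and Cd14, receptors for lipids and for bacterial lipopolysaccharide, had log2 fold changes of 0.03 (SE 0.18) and -0.05 (SE 0.20). Fcgr1 encodes the high-affinity IgG receptor. It was at 2.85, 2.75 and 2.40 CPM in wild-type and at 3.69, 2.99 and 3.003 CPM in knockout, with means of 2.67 ± 0.235 and 3.23 ± 0.403 CPM (SD, n = 3 each). The knockout values were all above the wild-type values by a small gap, and the log2 fold change was 0.28 (SE 0.19, edgeR adjusted p = 0.891).

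Genes of the lysosome, the cytoplasm and secretion showed the same spread. Aif1, an actin-binding protein of macrophages, was at 3.83, 3.71 and 3.897 CPM in wild-type and at 4.95, 4.02 and 4.66 CPM in knockout. Its means were 3.81 ± 0.0939 and 4.55 ± 0.475 CPM (SD, n = 3 each), the groups did not overlap, and the log2 fold change was 0.25 (SE 0.16, edgeR adjusted p = 0.874). In CPM, Aif1 and Fcgr1 were the 2 of 30 tested genes with no overlap and knockout higher, against 6.77% of all genes. No member had all knockout CPM values below wild-type, against 6.16% of all genes. In TPM both genes overlapped. Aif1 was at 8.965 to 11.78 TPM in wild-type and 9.03 to 14.01 TPM in knockout, and Fcgr1 at 2.15 to 3.73 and 2.12 to 3.65 TPM. Ctss, the lysosomal protease cathepsin S, was at 12.1, 10.1 and 8.58 CPM in wild-type and at 17.3, 11.8 and 11.5 CPM in knockout, a log2 fold change of 0.40 (95% interval -0.06 to 0.86, edgeR adjusted p = 0.771). Its 2 lower knockouts fell within the wild-type range. Lyz2, macrophage lysozyme, was at 21.6, 21.4 and 24.8 CPM in wild-type and at 32.9, 24.5 and 24.2 CPM in knockout, a log2 fold change of 0.27 (95% interval -0.06 to 0.60). Its difference rested on knockout replicate 1, and the other 2 knockouts were at the level of wild-type replicate 3. Cybb, the catalytic subunit of the phagocyte oxidase, was at 7.75 CPM in knockout replicate 1 and 3.51 to 5.46 CPM in the other libraries. Cd68, a lysosomal glycoprotein, had a log2 fold change of -0.16 (SE 0.18) and F13a1, a coagulation factor subunit, of -0.18 (SE 0.20). Pf4, a chemokine made by macrophages and platelets, ranged from 2.23 to 4.52 CPM in wild-type and from 2.53 to 3.97 CPM in knockout. Ms4a7, a membrane protein of resident macrophages, had a log2 fold change of 0.25 (SE 0.24).

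Timd4 and Cd163, the pair left out by the filter, rest on few counts. Timd4, the phosphatidylserine receptor of resident macrophages, had 5, 4 and 4 counts in wild-type and 23, 15 and 11 in knockout, and all knockout values were above wild-type. Without a filter, its log2 fold change was 1.64 with an adjusted p of 0.44 from edgeR. Cd163, a haemoglobin scavenger receptor, had 6, 18 and 4 counts in wild-type and 4, 2 and 7 in knockout, and the groups overlapped. Its log2 fold change without a filter was -1.29 (edgeR adjusted p = 0.868).

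The 9 pan-leukocyte genes had a median log2 fold change of 0.15, from -0.02 to 0.37, and all 9 intervals lay within a 2-fold change. Tyrobp and Fcer1g encode adaptors that pass on signals from surface receptors. Tyrobp was at 7.95, 3.41 and 4.66 CPM in wild-type and at 7.27, 5.18 and 6.52 CPM in knockout, a log2 fold change of 0.25 (SE 0.30, edgeR adjusted p = 0.967). Fcer1g was at 10.4, 5.84 and 4.40 CPM in wild-type and at 7.06, 5.46 and 7.79 CPM in knockout, a log2 fold change of -0.02 (SE 0.30). In both, wild-type replicate 1 was the highest library of the 6. Spi1, which encodes PU.1, was at 5.65, 4.47 and 3.92 CPM in wild-type and at 5.95, 4.63 and 5.57 CPM in knockout. Coro1a, an actin-binding protein of leukocytes, was at 36.03, 26.3 and 22.6 CPM in wild-type and at 35.5, 25.2 and 35.1 CPM in knockout, with means of 28.3 ± 6.94 and 31.9 ± 5.87 CPM (SD, n = 3 each). Its log2 fold change was 0.18 (SE 0.20, edgeR adjusted p = 0.961), and the libraries fell into a higher set of 3 and a lower set of 3 that mixed the genotypes. Lcp1, a leukocyte plastin, had the narrowest interval, a log2 fold change of 0.12 (-0.12 to 0.37). The remaining members of this group are Ptprc, the tyrosine phosphatase CD45, at 0.13 (SE 0.18), Laptm5, a lysosomal membrane protein, at 0.07 (SE 0.19), Cd53, a tetraspanin, at 0.15 (SE 0.17), and Itgam, the integrin CD11b, at 0.37 (SE 0.25), all as log2 fold changes.

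**Figure D3:**
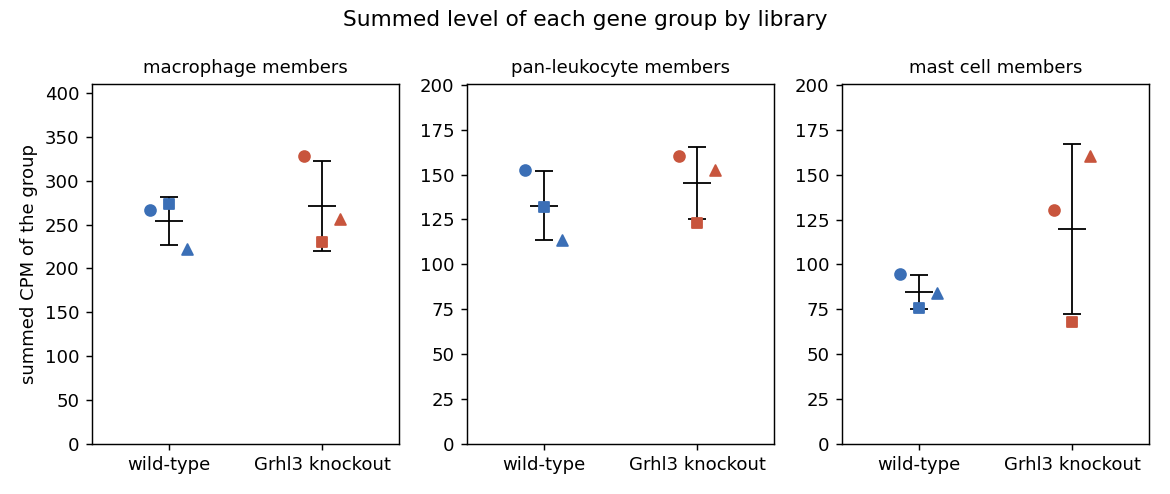
Summed CPM of the macrophage, pan-leukocyte and mast cell genes in each library, with circles, squares and triangles for replicates 1, 2 and 3 and a bar for the mean ± SD. The knockout libraries spread from 67.7 to 160.7 CPM in the mast cell sum, wider than the wild-type libraries at 75.8 to 94.6 CPM, and all 3 sums overlap between the groups.

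As a sum, the macrophage genes stood at 266, 273 and 222 CPM in wild-type and at 329, 230 and 256 CPM in knockout, a ratio of means of 1.07. The pan-leukocyte genes stood at 152.5, 132.0 and 113.7 CPM in wild-type and at 160.6, 122.9 and 152.7 CPM in knockout, a ratio of 1.10. Neither difference exceeded the spread of a genotype, since the highest macrophage sum was 1.43 times the lowest among knockouts and 1.23 times among wild-types.

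The mast cell genes had larger fitted differences than the other groups, and only 2 of the 3 knockout libraries lay above wild-type. Cpa3, the carboxypeptidase of the mast cell granule, was at 59.4, 56.9 and 65.5 CPM in wild-type and at 91.1, 48.4 and 104.1 CPM in knockout. Its means were 60.6 ± 4.41 and 81.2 ± 29.2 CPM (SD, n = 3 each), a log2 fold change of 0.42 (SE 0.24, edgeR adjusted p = 0.824). Knockout replicates 1 and 3 lay above every wild-type library, and knockout replicate 2 lay below every wild-type library. Cma1, the chymase, was at 33.3, 18.3 and 17.3 CPM in wild-type and at 36.2, 18.1 and 52.4 CPM in knockout, with means of 23.0 ± 8.92 and 35.6 ± 17.2 CPM (SD, n = 3 each). Its log2 fold change was 0.63 (95% interval -0.23 to 1.497, edgeR adjusted p = 0.843). Mcpt4, a second chymase, was at 1.98, 0.582 and 1.04 CPM in wild-type and at 3.05, 1.16 and 4.20 CPM in knockout. Its counts were 75, 29 and 41 against 150, 55 and 231, and its means were 1.20 ± 0.714 and 2.80 ± 1.54 CPM (SD, n = 3 each). The log2 fold change was 1.24 (SE 0.54, 95% interval 0.01 to 2.47), with an unadjusted p of 0.049 and an edgeR adjusted p of 0.686. The difference did not pass the test, and knockout replicate 2 lay within the wild-type range.

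**Figure D4:**
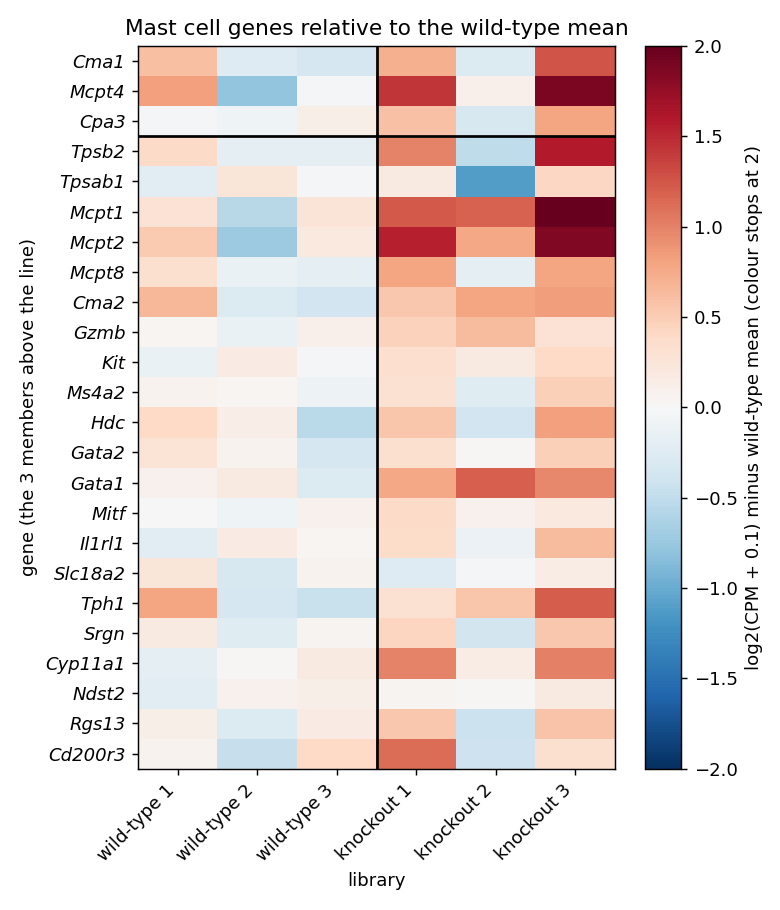
Heat map of Cma1, Mcpt4 and Cpa3 (above the line) and of the 21 other tested mast cell genes (below it), with 1 column per library and colour for log2(CPM + 0.1) minus the wild-type mean of the gene, red for higher and blue for lower. In the top 3 genes knockout replicates 1 and 3 are redder than knockout replicate 2.

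The summed mast cell genes were at 94.6, 75.8 and 83.9 CPM in wild-type and at 130.4, 67.7 and 160.7 CPM in knockout, a ratio of means of 1.41, and the highest knockout was 2.38 times the lowest. Knockout replicate 3 was the highest library in all 3 genes and knockout replicate 2 the lowest knockout in all 3. The mast cell sum per macrophage sum was 0.355, 0.277 and 0.377 in wild-type and 0.397, 0.295 and 0.627 in knockout, so knockout replicate 3 was the library in which the mast cell sum was largest beside the macrophage sum. Cma1 per Cpa3 was 0.560, 0.322 and 0.265 in wild-type and 0.397, 0.375 and 0.504 in knockout, in which wild-type replicate 1 and knockout replicate 3 were the highest. The median log2 fold change of the 3 genes was 0.63. Leaving out knockout replicate 3 gave 0.24, leaving out knockout replicate 2 gave 0.95, and the median was 0.999 without wild-type replicate 1.

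The position of a library within its genotype recurred across these genes. The orders were counted for the members only and not over all genes, so they are not shown to be particular to the members. Knockout replicate 1 was the highest library of the 6 for 15 of the 30 tested genes and the lowest for 0. Wild-type replicate 3 was the lowest for 14 and the highest for 0. Among the knockouts, replicate 1 was the highest for 22 genes and replicate 2 the lowest for 22. By cell type, knockout replicate 1 was the highest for 11 of 18 macrophage genes, while knockout replicate 3 was the highest for 3 of 3 mast cell genes. Wild-type replicate 1, the library with the shortest mean transcript, was the highest wild-type for 11 of the 15 shorter genes (up to 1572 bases) and for 6 of the 15 longer ones (from 1659 bases). With a term for the Y-linked level in the edgeR model, the median log2 fold change was -0.08 for macrophage genes and -0.11 for pan-leukocyte genes, so their direction depended on it. For the mast cell genes in that model the median was 0.45, with log2 fold changes of 0.055 for Cma1 and 0.449 for Mcpt4, both lower than without the term, and of 0.458 for Cpa3. That fit compares the knockouts mainly with wild-type replicate 1. The part of transcript length in the orders above was not tested.

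The transcripts assigned to a gene also differed between libraries, which was noticed after the values were seen. Mrc1-202, a retained-intron transcript of 2 exons at the 3′ end of Mrc1 (chr2:14328561-14331927), held 60.8%, 7.46% and 29.7% of the gene's TPM in wild-type and 3.42%, 32% and 56.9% in knockout. F13a1-202, which differs from F13a1-201 in its first exon, held 36.3% in wild-type replicate 1 and under 0.1% in the other wild-types, against 0.0402%, 23.2% and 48.6% in knockout. Cma1-202, which differs from Cma1-201 in the ends of the transcript, held 100%, 4.42% and 23.5% in wild-type and 53.2%, 57.5% and 100% in knockout. For Mrc1 and F13a1, the 3 libraries with the shortest mean transcript had the highest shares, and both genotypes were among them. Summing the estimated counts over the transcripts of a gene leaves these shares out of its CPM. Summed TPM is set by transcript length, so it also depends on which transcripts the counts were assigned to. Of the TPM of Fcgr1, the 600-base Fcgr1-202 held 49.7%, 66.5% and 47.7% in wild-type and 18.9%, 51.5% and 69.4% in knockout.

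**Figure D5:**
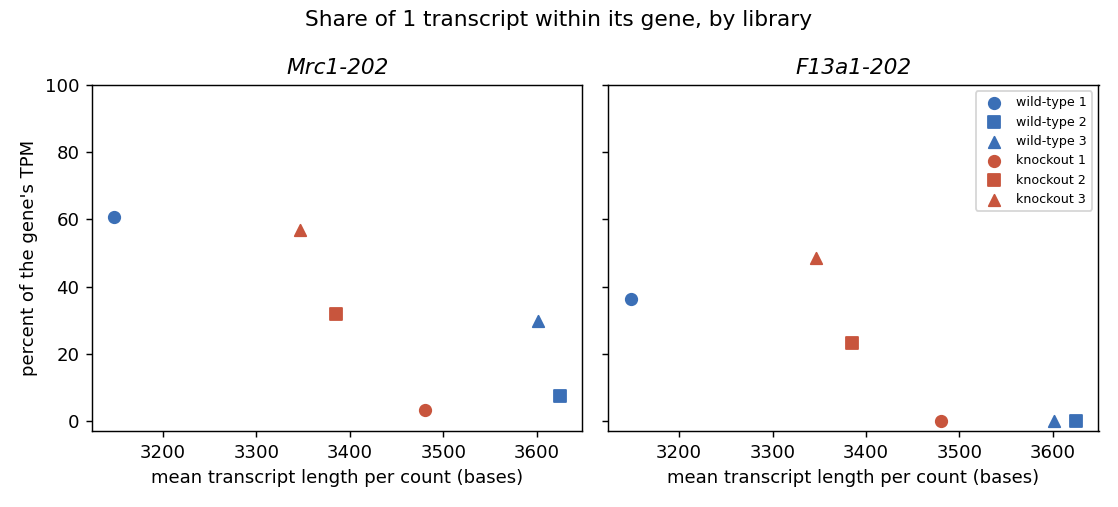
Share of the gene's TPM held by Mrc1-202 and by F13a1-202 against the mean transcript length per count in bases, with 1 point per library and circles, squares and triangles for replicates 1, 2 and 3. The 3 libraries with the shortest mean transcript, wild-type replicate 1 and knockout replicates 2 and 3, hold the 3 highest shares.

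Some members share sequence with another gene, which bears on how reads were divided. Of the 31-base words of Itgam, 68.3% occur in another gene, 67.2% in Gm49368, whose level was at most 0.126 CPM. For Lyz2 it is 32.8%, all with Lyz1 at most at 0.0842 CPM, and for Csf1r 17.4%, with Hmgxb3 at 48.3 to 56.2 CPM. How reads were divided between Csf1r and Hmgxb3 is therefore uncertain. Mcpt4 shares 12.2% of its words, 10.2% with Cma2 at 0.177 to 0.546 CPM, and Cma1 shares 10.6% with Gm48934, which was at 0.

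The authors' deposited table of the same comparison lists 941 genes with p-values up to 0.0506, and 1 of the 32 genes, Mcpt4, is in it. For Mcpt4, the authors' deposited table gives a log2 fold change of 1.23, a p of 0.0307 and a false discovery rate of 0.621. That table carries a likelihood ratio score, whereas the edgeR adjusted p-values given here come from the quasi-likelihood test.

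The other genes of these pathways came from 15 further lists. Among 38 tested of 40 other macrophage genes, edgeR and the other 3 tests called 0, and the median log2 fold change was 0.09. With an unadjusted edgeR p under 0.05, 2 were higher and 0 lower, against 3.81% and 3.41% of all genes. Clec4n, a C-type lectin, had 0.51 (edgeR adjusted p = 0.687), Mertk, an engulfment receptor, -0.28 (edgeR adjusted p = 0.769) and Cd33 -0.35 (edgeR adjusted p = 0.786). Of these 3, Clec4n had the knockout values all above wild-type, Cd33 had them all below, and Mertk overlapped. Levels in this list ran from under 0.1 CPM in every library (Vsig4) to a wild-type mean of 183.5 CPM (Axl). The wild-type mean of Csf1r was 34.1 CPM. Which cells made the RNA of the listed genes was not tested.

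Among 21 tested of 25 other mast cell genes, edgeR called 0, with 5 higher and 0 lower at an unadjusted p under 0.05, against 3.81% and 3.41% of all genes. The log2 fold change was above 0 in 19 of the 21, against 48.8% of all genes, and the median was 0.39. All knockout values were above wild-type in 5, against 6.77% of all genes. The likelihood ratio test called Gata1 and Mcpt1 and DESeq2 called Gata1, while limma-voom called 0. Over all genes, the likelihood ratio test called 260 of 16938, DESeq2 301 of 23642 and limma-voom 45 of 16938. Gata1, a transcription factor of mast, red blood and platelet-forming cells, was at 1.19, 1.28 and 0.911 CPM in wild-type and at 1.99, 2.68 and 2.26 CPM in knockout, a log2 fold change of 1.03 (SE 0.24, edgeR adjusted p = 0.196). Unlike the mast cell members, its highest library was knockout replicate 2. Mcpt2, a mucosal protease, was at 0.660, 0.221 and 0.506 CPM in wild-type and at 1.46, 0.8004 and 1.80 CPM in knockout, a log2 fold change of 1.57 (SE 0.45, edgeR adjusted p = 0.355). Mcpt1 was at 0.0792, 0 and 0.0759 CPM in wild-type and at 0.244, 0.232 and 0.564 CPM in knockout, near the limit of detection (edgeR adjusted p = 0.323). Cyp11a1, a steroid-making enzyme found in mast cells, had a log2 fold change of 0.78 (SE 0.26, edgeR adjusted p = 0.466). Mcpt9, Fcer1a and Mrgprb2 of this list were under 0.1 CPM in every library. For Gata1, the authors' deposited table, which carries a likelihood ratio score, gives a false discovery rate of 0.0331.

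Kit, the receptor that mast cells depend on and that other cells also make, was at 25.4 ± 2.73 (wild-type) and 31.3 ± 2.27 CPM (knockout, SD, n = 3 each), a log2 fold change of 0.30 (SE 0.11, edgeR adjusted p = 0.561). Its ligand Kitl was at 64.5 ± 6.14 and 64.3 ± 11.1 CPM (SD, n = 3 each), a log2 fold change of -0.004. Csf1, a ligand of CSF1R, was at 20.4 ± 0.790 and 20.2 ± 2.41 CPM (SD, n = 3 each), with a 95% interval of the log2 fold change from -0.28 to 0.25. Cx3cl1, the ligand of CX3CR1, had 0.15 (SE 0.22). Il34, the other ligand of CSF1R and a product of epithelium, was at 0.792, 0.843 and 0.734 CPM in wild-type and at 2.497, 1.01 and 1.66 CPM in knockout. Its groups did not overlap, and the log2 fold change was 1.12 (SE 0.35, edgeR adjusted p = 0.402). Of the 14 tested of 19 ligands and chemokine genes, edgeR, the likelihood ratio test, DESeq2 and limma-voom called 0. At an unadjusted p under 0.05 in edgeR, 2 were higher and 0 lower, against 3.81% and 3.41% of all genes. The second was Il33, an alarmin, at 0.70 (SE 0.29, edgeR adjusted p = 0.636), followed by Cxcr4, a chemokine receptor, at 0.29 (SE 0.13) and Ccl24 at -0.65 (SE 0.59).

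Of 14 tested of 15 complement and engulfment genes, edgeR called 0, with 4 higher and 0 lower at an unadjusted p under 0.05. DESeq2 called C3, Anxa1 and Cd93, the likelihood ratio test called C3 and Anxa1, and limma-voom called 0. C3, the central complement protein, was at 0.634, 1.20 and 0.658 CPM in wild-type and at 4.02, 3.94 and 1.98 CPM in knockout. Its log2 fold change was 1.97 (SE 0.37, edgeR adjusted p = 0.0936), and the groups did not overlap. Anxa1, annexin A1, was at 143.3 ± 18.9 and 261 ± 77.6 CPM (SD, n = 3 each), a log2 fold change of 0.87 (SE 0.21, edgeR adjusted p = 0.205). Cd93 had 0.37 (SE 0.08, edgeR adjusted p = 0.171) and Mfge8, a bridge between dying cells and phagocytes, 0.34 (SE 0.10, edgeR adjusted p = 0.362). For C3, the authors' deposited table, with its likelihood ratio score, gives a log2 fold change of 1.98 and a false discovery rate of 0.000311.

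Lists of other cell types were read for what else the handpads held. For comparison, 3.81% of all genes were higher and 3.41% lower at an unadjusted p under 0.05 in edgeR. The log2 fold change was above 0 in 48.8% of all genes. Of neutrophil and monocyte genes, 9 of 15 were tested and edgeR called 0, with 2 higher at an unadjusted p under 0.05, Plac8 (log2 fold change 0.88) and S100a8 (1.89), while Mpo (2.17) and Csf3r (-0.39) followed. DESeq2 and the likelihood ratio test called Plac8, against 301 of 23642 and 260 of 16938 over all genes, and limma-voom called 0. Lymphocyte genes, with 10 of 15 tested and a median of -0.14, had 0 at an unadjusted p under 0.05, and Cd2, singled out after its values were seen, was under 0.1 CPM. Genes of antigen-presenting cells (9 of 11 tested, median 0.35) and of megakaryocytes (10 tested, median 0.25) had 0 as well, and Cd207 of Langerhans cells was under 0.1 CPM. Erythroid genes had a log2 fold change above 0 in 11 of 11 with a median of 0.29 and 2 at an unadjusted p under 0.05, Slc4a1 among them. Endothelial genes (12 tested, median 0.10) had 3, Vwf, Cdh5 and Tek. None of these 5 lists had a gene called by edgeR, the likelihood ratio test, DESeq2 or limma-voom.

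The tissue around these cells differed between the libraries. For comparison, edgeR called 0.348% of all genes higher and 0.0827% lower. At an unadjusted p under 0.05 in edgeR, 3.81% were higher and 3.41% lower, and 48.8% had a log2 fold change above 0. Of 10 keratinocyte genes, edgeR called 2 higher in knockout, Krt8 (log2 fold change 2.99, adjusted p = 0.00237) and Krt18 (1.87, adjusted p = 0.00961), keratins of simple epithelium and periderm. The likelihood ratio test called 5 of the list, DESeq2 7 and limma-voom 2, all higher. Over all genes and in either direction, they called 260 of 16938, 301 of 23642 and 45 of 16938. The summed level was 1675, 2876 and 1777 CPM in wild-type and 4326, 3080 and 4114 CPM in knockout, and knockout replicate 2 was the lowest knockout here as in the mast cell sum. The 9 chondrocyte genes had log2 fold changes below 0 in 9 of 9, with a median of -0.48, 0 called by any of the 4 tests and 4 lower at an unadjusted p under 0.05 in edgeR, among them Cnmd. Limb mesenchyme (10 tested, median -0.06) and skeletal muscle (9 tested, median -0.05) had 0 at either threshold and 0 by the other 3 tests. The part of these differences in the values of the macrophage, mast cell and leukocyte genes was not tested.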

How the data were processed

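Polyadenylated RNA was measured in 3 wild-type and 3 Grhl3 knockout handpad samples. FastQC, kallisto and build mm10 are named in the submitters' processing notes; no tool version is given in the sources used here. The authors' 6 deposited tables hold, per the file headers, estimated counts and TPM of 111462 transcripts, with no further normalization. A further table deposited by the authors holds log2 fold changes, log2 CPM, a likelihood ratio score, p-values and false discovery rates, per the file headers.

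Transcripts were matched to GENCODE vM21 by unversioned identifier (110203 matched; the 1259 others held 0.504% to 0.566% of counts and were left out), estimated counts were summed per gene and rounded, and TPM was summed for levels between genes. edgeR 4.0.16 in R 4.3.3 used TMM scaling, a filter (minimum count 10, minimum total 15), the quasi-likelihood test on genotype over all 6 libraries, and Benjamini-Hochberg adjustment over 16938 genes, with a threshold of 0.05. The fit was tested on simulated data. Library totals of 38052692 to 56037639 limit the precision of low genes. Alternatives were DESeq2 1.42.0, its size factors, limma-voom (limma 3.58.1), the likelihood ratio test, no filter, a replicate block, a Y-linked term and leaving out each library. Words of 31 bases were compared between transcripts.

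The 32 genes and all lists were chosen with earlier results of these data known. Described in full were members called, members without overlap, the 5 with the highest mean TPM and all mast cell members; of each other list, up to 4 genes with the smallest p, plus Csf1, Il34, Cx3cl1, Kitl and Kit. Some genes that this rule names are not reported here.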

Additional observations from a re-analysis of the deposited data

How the results depend on the processing

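None of the 30 tested genes passed an adjusted p of 0.05 in any of the 13 alternatives, and the lowest adjusted p was 0.0813, for Cpa3 without knockout replicate 2. Over all genes, the 73 called became 301 with DESeq2, 260 with the likelihood ratio test, 118 with no filter on low counts and 45 with limma-voom, and ranged from 10 (without wild-type replicate 3) to 206 (without wild-type replicate 1) when 1 library was left out. With the Y-linked term the medians turned to -0.08 (macrophage) and -0.11 (pan-leukocyte), and the log2 fold changes of Spi1 (-0.11), Trem2 (-0.31), Csf1r (-0.12), Ms4a7 (-0.048), Laptm5 (-0.21), Tyrobp (-0.39), Coro1a (-0.22), C1qa (-0.12), C1qc (-0.18), C1qb (-0.15), Cx3cr1 (-0.005) and Mrc1 (0.24) changed sign. Fcer1g had an unadjusted p of 0.0263 there, at -0.69. With limma-voom, Pf4 (0.054) and Fcer1g (0.073) changed sign. When 1 library was left out, the log2 fold changes that changed sign ranged from -0.164 to 0.238 (Adgre1), -0.06 to 0.229 (Ptprc), -0.1 to 0.212 (Trem2), -0.181 to 0.17 (Csf1r), -0.122 to 0.208 (Laptm5), -0.015 to 0.277 (C1qc), -0.045 to 0.255 (Cx3cr1), -0.221 to 0.31 (Pf4), -0.104 to 0.005 (Cd14), -0.264 to 0.402 (Fcer1g) and -0.428 to 0.146 (Mrc1). Of the 30 genes, 13 kept their sign throughout, Cpa3 (0.20 to 0.69), Cma1 (0.055 to 0.999) and Mcpt4 (0.45 to 1.81) among them. The causes were not tested. Medians ranged from 0.03 to 0.25 for macrophage, 0.08 to 0.23 for pan-leukocyte and 0.24 to 0.999 for mast cell genes when 1 library was left out. Without wild-type replicate 1, 4 macrophage, 2 pan-leukocyte and 2 mast cell genes had an unadjusted p under 0.05 in edgeR, C1qb at a log2 fold change of 0.65 (adjusted p = 0.112) among them. The labels do not say whether same-numbered libraries were paired. Their deviations correlated at -0.244, -0.092 and -0.162 over genes, and with so few libraries per genotype this cannot decide it. With a replicate block, 47 genes and 0 members were called, and Pf4 (0.018) and Fcer1g (0.047) changed sign. At the depth of these libraries, Timd4 and Cd163 held 2 to 23 counts per library and did not pass the filter.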
